A study of Mus musculus with 12 samples.

Results

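The genes described here carry out fatty acid oxidation and lipid uptake in mouse liver. They were taken from a list of 37 genes as every probe set (a group of short array probes for one transcript) whose single gene symbol in the platform's probe table was on that list. The list was chosen with earlier results of these data known. The matching rule itself used no measured value. It found 46 probe sets for 32 genes among the 12488 probe sets of the array; Ucp2, Acsl1, Bdh1, Acot2 and Hadha had none. Of these, 39 probe sets for 30 genes passed the filter on low signal, an intensity above a floor of 33.0 on at least 2 arrays, and all 39 were above the floor on all 12 arrays. The 7 that did not pass never exceeded 28.8. They were both probe sets of Acadvl, the very-long-chain acyl-CoA dehydrogenase, both of Cd36, a fatty acid transporter of the cell surface, and 1 each of Angptl4, Cpt2 and Lpl, so that Acadvl and Cd36 have no tested probe set.

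Hepatocytes take up fatty acids, bind them in the cytosol, and either store them in lipid droplets or oxidise them. Mitochondria import long-chain fatty acids as carnitine esters and shorten them by repeated cycles of dehydrogenation, hydration, a further dehydrogenation and thiolysis, while peroxisomes begin the oxidation of very long and branched chains and release hydrogen peroxide. Many of these enzymes are induced in fasting through the nuclear receptor PPARα. IL-6 signals through STAT3, and Socs3 is a feedback inhibitor best known in liver for limiting the IL-6 signal.

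Total liver RNA was measured on 12 Affymetrix arrays in 6 groups of 2, and the mice had been killed 4 h after they were injected intraperitoneally. Control animals carried no albumin-Cre and 1 floxed with 1 wild-type Socs3 allele (albumin-cre(-) Socs3(w/fl)) and received PBS or IL-6. Socs3-deleted mice carried albumin-Cre with 1 floxed and 1 null Socs3 allele (albumin-cre(+) Socs3(-/fl)) and received PBS or IL-6, and Interferon-gamma-/- mice, called Ifng-null here, received PBS or IFN-γ. The albumin promoter drives Cre in hepatocytes, whereas the null allele is carried by every cell, so the control and Socs3-deleted groups differed in Cre and in the null allele as well as in the floxed deletion; strain, age and dose were not given in the labels. The labels did not say that the 2 arrays of a group came from separate mice, so p-values rest on the spread of these arrays alone.

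All groups were fitted together with limma on log2 intensities over 9641 probe sets, and a call means a Benjamini-Hochberg adjusted p of at most 0.05 over all of them. Array medians lay between 80.6 and 85.7. Socs3 itself was lower on the Socs3-deleted arrays: its 92232_at probe set read 74.4 to 106 there against 117 to 167 on the control arrays, a log2 difference averaged over PBS and IL-6 of -0.68 (limma adjusted p = 0.0462), and this call was kept in 11 of 25 alternative settings and ended when any 1 of the 8 arrays was left out. All 14 hepatocyte marker genes with a probe set were above the floor, with a summed intensity of 55161 to 73510 over the list. The second control PBS array and the second Socs3-deleted PBS array carried pancreatic enzyme transcripts, with a summed marker intensity of 7945 and 17756 against 1332 to 1590 on the other arrays, and the summed erythroid markers ranged from 907 to 8033. Of the adipocyte marker genes with a probe set 5 of 6 were above the floor on some array, Adipoq being the exception, as were 5 of 10 for T and NK cells, without Cd3d, Cd3g, Cd8a, Gzma and Ncr1.

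The sequences upstream of 4 of the genes are shown because the results turn on Plin2, Acaa1b and Cpt2, and because Fabp1 held the closest match to a PPAR-type element. They are from RefSeq on build GRCm38.p6, read 5′ to 3′ on the gene's strand, and hold those of the 250 bases before the start used that lie outside the gene's annotated span. The stretch of Plin2 is shorter and ends well before that start because the gene's annotated span begins upstream of it. Capitals mark a match to the direct repeat of 2 copies of AGGTCA spaced by 1 base with at most 2 mismatches (DR1, the element bound by PPARα with RXR) in Plin2 and Fabp1, and to TTCNNNGAA, the STAT consensus, in Cpt2. Acaa1b held neither.
Plin2, chr4:86670218-86670309, minus strand: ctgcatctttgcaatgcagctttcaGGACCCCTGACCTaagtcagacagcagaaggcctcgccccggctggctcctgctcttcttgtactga
Fabp1, chr6:71199629-71199878, plus strand: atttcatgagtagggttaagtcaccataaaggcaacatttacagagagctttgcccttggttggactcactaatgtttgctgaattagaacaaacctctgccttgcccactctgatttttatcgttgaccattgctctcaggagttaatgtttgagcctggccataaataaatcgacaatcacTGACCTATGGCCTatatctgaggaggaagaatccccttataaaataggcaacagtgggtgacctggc
Acaa1b, chr9:119157094-119157343, minus strand: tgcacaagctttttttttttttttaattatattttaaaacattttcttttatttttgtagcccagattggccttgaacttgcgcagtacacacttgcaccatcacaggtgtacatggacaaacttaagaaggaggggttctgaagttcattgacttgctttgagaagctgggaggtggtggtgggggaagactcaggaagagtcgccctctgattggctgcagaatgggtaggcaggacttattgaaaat
Cpt2, chr4:107923590-107923839, minus strand: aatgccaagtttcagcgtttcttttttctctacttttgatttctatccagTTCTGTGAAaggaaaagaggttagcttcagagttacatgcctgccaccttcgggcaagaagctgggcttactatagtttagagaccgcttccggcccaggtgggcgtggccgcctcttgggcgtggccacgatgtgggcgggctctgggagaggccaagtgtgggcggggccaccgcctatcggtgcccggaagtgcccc
A promoter window from 250 bases before to 50 after the start was found for 30 of the 37 genes and searched on both strands. The DR1 was present in 5 of the 30, or 16.7%, against 4.40% of the 27025 genes with a window. The other sites were in Cat, Cd36 and Etfa. The STAT consensus was present in 3 of the 30, or 10%, against 9.55% of all genes, in Cpt2, Hadha and Hadhb. Hadha and Hadhb are divergent neighbours, and their matches are the same bases read on opposite strands, so the 3 genes rest on 2 sites. No listed gene held both motifs, and a match describes only the letters of these windows.

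The 39 tested probe sets varied little across the study. The highest array exceeded the lowest by 1.20-fold to 3.65-fold, with a median of 1.82-fold, and 28 of the 39 stayed under 2-fold. Pex11a, Vnn1, Hadhb, Plin2, Angptl4 and Ehhadh had the widest ranges. The plot of single-array values shows 9 of the probe sets with the most to describe. With 2 arrays a group, groups often do not overlap even where there is no true difference. The share of all probe sets without overlap was not counted, so non-overlap below only describes the values.

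**Figure D1:**
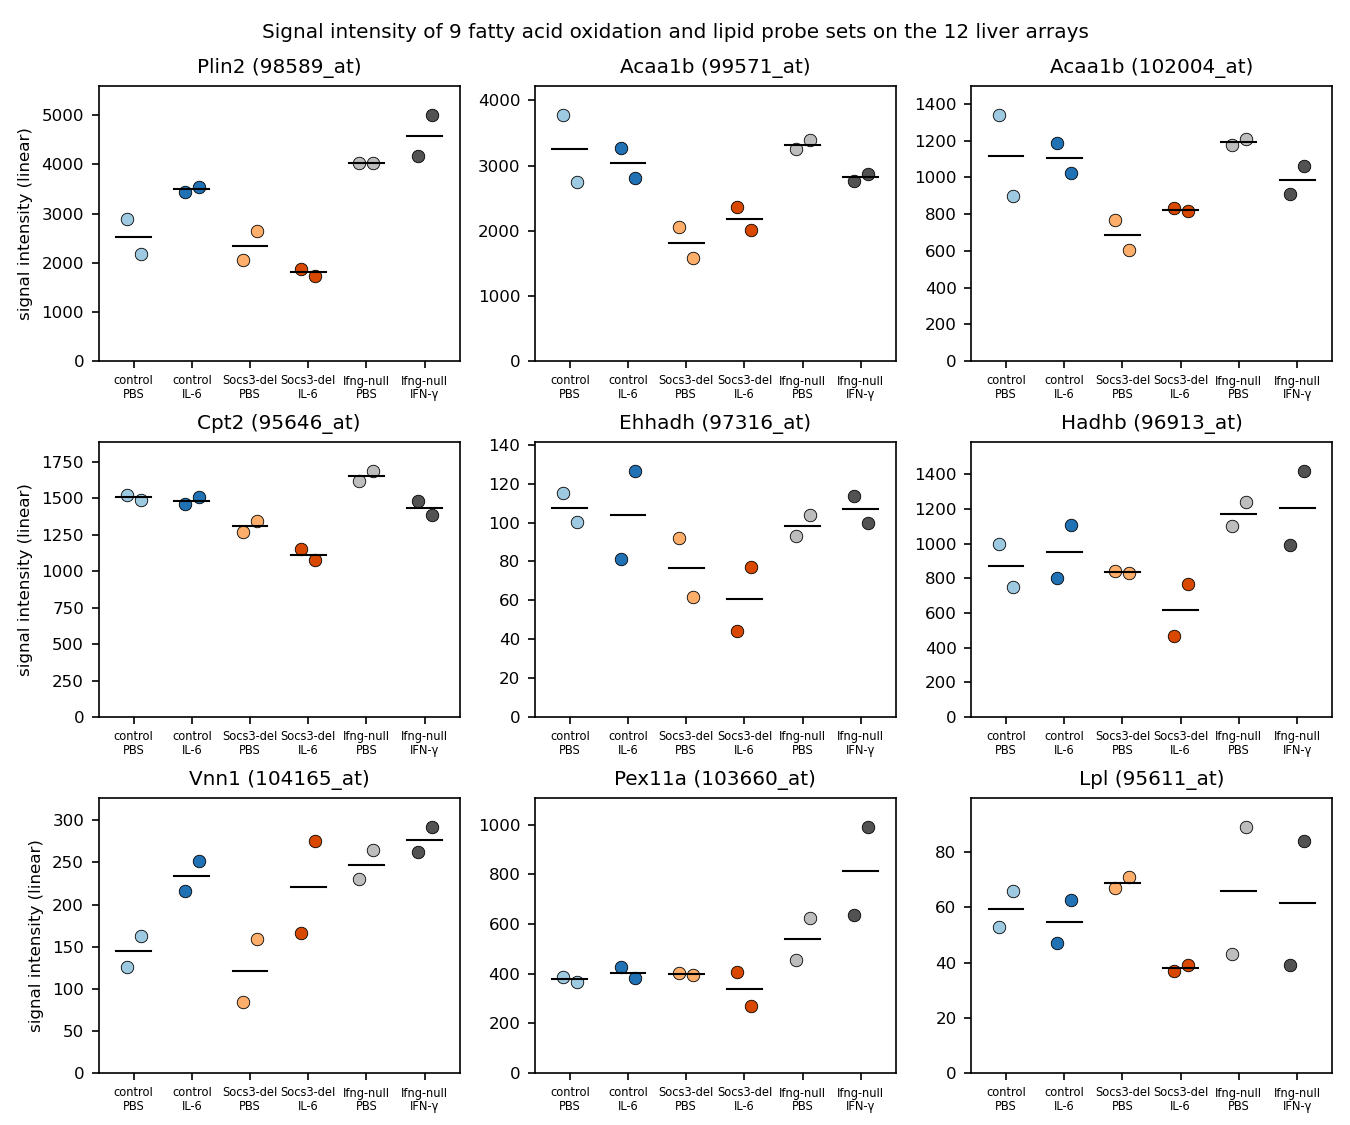
Signal intensity (linear scale, each panel from its own axis) of 9 probe sets on the 12 arrays, 2 points per group with the group mean as a line. Plin2 reads 1867 and 1738 in Socs3-deleted mice after IL-6 against 3448 and 3532 in control mice after IL-6, and both Acaa1b arrays of each Socs3-deleted group lie below all control arrays.

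Plin2, which coats lipid droplets in hepatocytes and marks their abundance, was the one gene of the list called in any comparison. Its intensity on the control arrays was 2895 and 2170 after PBS and 3448 and 3532 after IL-6. On the Socs3-deleted arrays it was 2047 and 2641 after PBS and 1867 and 1738 after IL-6. The Socs3-deleted IL-6 arrays were the lowest of the 12 and the control IL-6 arrays the highest of the 8 from these genotypes, so the groups did not overlap. After IL-6, Plin2 was 1.94-fold lower in Socs3-deleted than in control mice, a log2 difference of -0.95 ± 0.17 (SE; 95% interval -1.33 to -0.58; limma adjusted p = 0.0341). After PBS the difference was -0.11, with the 2 groups overlapping.

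The log2 difference between IL-6 and PBS for Plin2 was 0.48 ± 0.17 in control mice (limma adjusted p = 1) and -0.37 ± 0.17 in Socs3-deleted mice (limma adjusted p = 0.472), so neither passed. The test of the difference between these responses gave -0.85 ± 0.23, which also did not pass (limma adjusted p = 0.74). Plin2 was called in 16 of 25 alternative settings, and its log2 difference after IL-6 stayed between -1.01 and -0.87 in all of them. Leaving out either control IL-6 array (adjusted p = 0.13 without the first and 0.277 without the second), either Socs3-deleted IL-6 array (0.0994 and 0.179) or either Ifng-null PBS array (0.0602 for each) ended the call in the limma fit. It also ended without the filter on low signal (0.167), in a fit of only the arrays compared (0.209) and with a haemoglobin covariate (0.0509).

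After IL-6 the oxidation genes as a whole read lower in Socs3-deleted than in control mice, mostly by small amounts. The difference was negative for 33 of the 39 probe sets with a median of -0.20 log2, against 54.2% negative and a median of -0.01 over all probe sets tested. Because the lists were chosen with earlier results of these data known, shares set against all probe sets, here and below, are descriptive only. By role, 17 of 18 mitochondrial probe sets were lower with a median of -0.23, as were 11 of 12 peroxisomal ones with a median of -0.25. Of the 9 for uptake, binding and storage, 5 were lower, and the median was -0.04. The 4 higher ones were all those tested for Angptl4 and the dimmer one of Fabp1. Plin2, Lpl, Vnn1, Acot1 and the brighter Fabp1 probe set were lower. The smaller share in this role thus rests mostly on Angptl4 being counted more than once. With the call of Plin2, 1 of 39 was called, against a background of 0.954% of all probe sets in either direction and 0.0934% lower. At an unadjusted p of at most 0.05, 9 of the 39 passed, all lower, or 23.1%. The background was 9.09% in either direction, with 388 of the 9641 probe sets lower. The median was -0.31 without the first control IL-6 array and between -0.31 and -0.14 over the arrays left out one at a time.

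**Figure D2:**
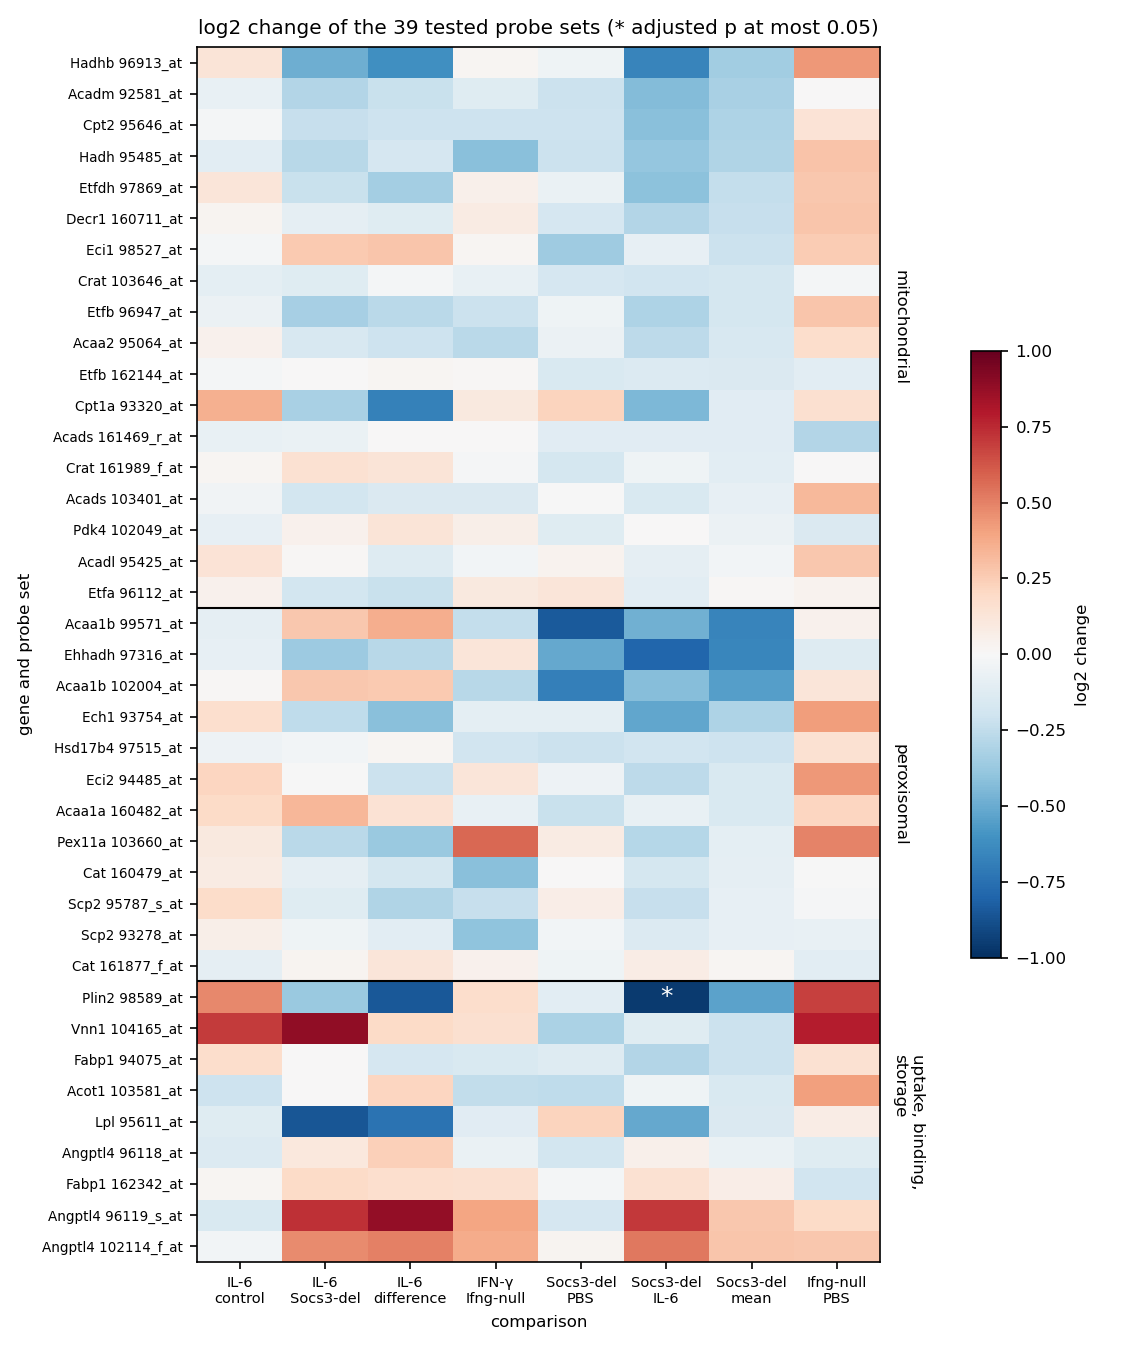
log2 difference of each of the 39 tested probe sets (rows, by role) in the comparisons made (columns), coloured from lower to higher. The mean IL-6 response of both genotypes is not drawn. An asterisk marks a limma adjusted p of at most 0.05. The one asterisk is on Plin2 in Socs3-deleted against control mice after IL-6, and the columns of that genotype comparison are mostly on the lower side.

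Among the mitochondrial genes Cpt2, the inner-membrane enzyme that turns imported acylcarnitines back into acyl-CoA, came closest to a call. It read 1459 and 1508 in control and 1151 and 1075 in Socs3-deleted mice after IL-6, and 1525 and 1491 against 1270 and 1348 after PBS. All 4 Socs3-deleted arrays were below all 4 control arrays. The log2 difference was -0.42 ± 0.09 after IL-6 (limma adjusted p = 0.0897) and -0.31 ± 0.07 averaged over both injections (limma adjusted p = 0.0737), and both passed only with array weights (0.0269 and 0.0419). Hadhb, the thiolase-bearing subunit of the trifunctional protein, read 800 and 1108 in control and 466 and 765 in Socs3-deleted mice after IL-6. Those groups did not overlap, and the log2 difference of -0.66 ± 0.27 did not pass (limma adjusted p = 0.471). The first Socs3-deleted array carried much of it: the value was -0.30 without that array.

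Acadm, the medium-chain acyl-CoA dehydrogenase, and Hadh, the short-chain 3-hydroxyacyl-CoA dehydrogenase, gave 1267 and 1545 and 800 and 890 on the control IL-6 arrays. On the Socs3-deleted IL-6 arrays they gave 942 and 1135 and 645 and 647. Neither pair of groups overlapped, and the log2 differences of -0.44 ± 0.18 and -0.39 ± 0.16 did not pass (limma adjusted p = 0.49 and 0.497). Cpt1a, the outer-membrane enzyme that commits long-chain fatty acids to import, ranged from 1460 to 2715 over the 12 arrays with replicates far apart. Control mice had 2282 and 1460 after PBS and 1998 and 2715 after IL-6. Socs3-deleted mice had 2163 and 2095 after PBS and 1894 and 1531 after IL-6. The difference between the IL-6 responses was -0.67 ± 0.34 (limma adjusted p = 0.999), and its genotype difference after PBS, 0.22 ± 0.24, turned negative without the second control PBS array (-0.10).

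Acaa2 is the mitochondrial thiolase, Decr1 and Eci1 handle the double bonds of unsaturated chains, Etfa, Etfb and Etfdh pass the electrons of the dehydrogenases to the respiratory chain, and Crat transfers acetyl groups to carnitine. Acadl and Acads are the long- and short-chain dehydrogenases, and Pdk4 is the kinase that inhibits pyruvate dehydrogenase. None of these was called in any comparison. Etfdh gave 427 and 602 on the control IL-6 arrays and 364 and 401 on the Socs3-deleted IL-6 arrays, without overlap, and the log2 difference of -0.41 ± 0.21 did not pass (limma adjusted p = 0.64). Eci1 gave 634 and 494 against 415 and 459 after PBS, the lowest mitochondrial value of that comparison at -0.36 ± 0.16 (limma adjusted p = 0.951), and its arrays overlapped after IL-6. Etfa gave 612 and 478 on the control PBS arrays and 629 and 549 on the Socs3-deleted ones, a difference of 0.12 ± 0.16 with overlap (limma adjusted p = 0.962).

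For Etfb 96947_at the control arrays gave 1418 and 1123 after PBS and 1224 and 1196 after IL-6. The Socs3-deleted arrays gave 1211 and 1242, then 882 and 1078. The IL-6 arrays lay below the PBS arrays in Socs3-deleted mice and overlapped them in control mice, and the mean IL-6 difference of -0.20 ± 0.11 did not pass (limma adjusted p = 0.755). The second probe set of Etfb, 162144_at, gave -0.007 ± 0.067 for the same difference. Pdk4 stayed between 50.7 and 61.9 on the 12 arrays, and its difference in Ifng-null against control mice after PBS was -0.14 ± 0.12 (limma adjusted p = 0.873). The 2 probe sets of Acads disagreed: in Ifng-null against control mice after PBS, 103401_at gave 0.33 ± 0.14 and 161469_r_at gave -0.29 ± 0.18 (limma adjusted p = 0.873 for each).

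Of the peroxisomal genes, Acaa1b, a 3-ketoacyl-CoA thiolase that ends the peroxisomal oxidation cycle, was lower after either injection without passing the test in the main fit. In control mice its 99571_at probe set read 3769 and 2747 after PBS and 3271 and 2805 after IL-6. The Socs3-deleted arrays read 2051 and 1581 after PBS and 2359 and 2008 after IL-6. The 4 Socs3-deleted arrays were the lowest 4 of all 12. The log2 difference was -0.84 ± 0.18 after PBS (limma adjusted p = 0.331), -0.48 ± 0.18 after IL-6 (limma adjusted p = 0.408) and -0.66 ± 0.13 averaged over both (1.58-fold lower; 95% interval -0.94 to -0.38; limma adjusted p = 0.0542). The averaged difference passed in 6 of 25 alternative settings, with an adjusted p from 0.0205 to 0.228 over all of them.

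The second probe set of Acaa1b, 102004_at, gave -0.55 ± 0.13 on the same average (limma adjusted p = 0.12). The control arrays read 1337, 901, 1190 and 1024 and the Socs3-deleted arrays 769, 605, 832 and 815, again without overlap. Acaa1a is a closely similar thiolase gene, and how far the probes of one gene also bind the other was not tested. Its probe set gave -0.15 ± 0.16 (limma adjusted p = 0.858), and its arrays overlapped between the genotypes. They gave 970 and 623 after PBS and 916 and 861 after IL-6 in control mice, and 666 and 668, then 1021 and 693, in Socs3-deleted mice. The mean IL-6 difference of Acaa1a was 0.26 ± 0.16 and did not pass (limma adjusted p = 0.763).

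Ehhadh, the bifunctional enzyme of the peroxisomal cycle, read 81.3 and 126 in control and 44.4 and 77.0 in Socs3-deleted mice after IL-6. After PBS it read 115 and 100.1 against 91.9 and 61.6. The groups did not overlap after either injection. The log2 differences of -0.79 ± 0.29 after IL-6 and -0.51 ± 0.29 after PBS did not pass (limma adjusted p = 0.403 and 0.951). Ech1, an isomerase of unsaturated chains, read 1131 and 1211 in control and 750 and 894 in Socs3-deleted mice after IL-6, a log2 difference of -0.52 ± 0.17 that did not pass (limma adjusted p = 0.286). Hsd17b4, the second bifunctional enzyme, Eci2, another isomerase, Scp2, which carries a thiolase for branched chains, and Cat, which breaks down hydrogen peroxide, had no call in any comparison.

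After PBS alone the same genotype comparison called none of the 39 probe sets by limma, against a background of 0% of all probe sets. Of the 39, 2 had an unadjusted p of at most 0.05, both Acaa1b, against a background of 4.17%. The difference was negative for 31 of the 39 with a median of -0.12, against 54.2% negative and a median of -0.02 over all. That median rested on the first control PBS array and was 0.01 without it. This array exceeded its replicate for 28 of the 39 probe sets by a median of 0.29 log2, while over all probe sets the median difference between the 2 was 0.00. Leaving out the 2 arrays with pancreatic transcripts gave a median of -0.23.

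Averaged over PBS and IL-6, 34 of the 39 were lower in Socs3-deleted mice with a median of -0.15, against 56.4% negative and a median of -0.02 over all probe sets. None was called by limma, against a background of 0.799%. At an unadjusted p of at most 0.05, 9 of the 39 passed, all lower. The background was 9.79% in either direction, with 400 of the 9641 probe sets lower. The PBS and IL-6 genotype comparisons share no arrays, and 26 of the 39 probe sets, or 66.7%, were negative in both, against 33.2% of all probe sets. These included both Acaa1b probe sets, Ehhadh, Cpt2, Hadhb and Plin2. With 31 of the 39 negative after PBS and 33 after IL-6, a count near 26 follows from those shares alone. It therefore adds no separate sign of agreement, and probe sets that move together within an array are not independent.

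**Figure D3:**
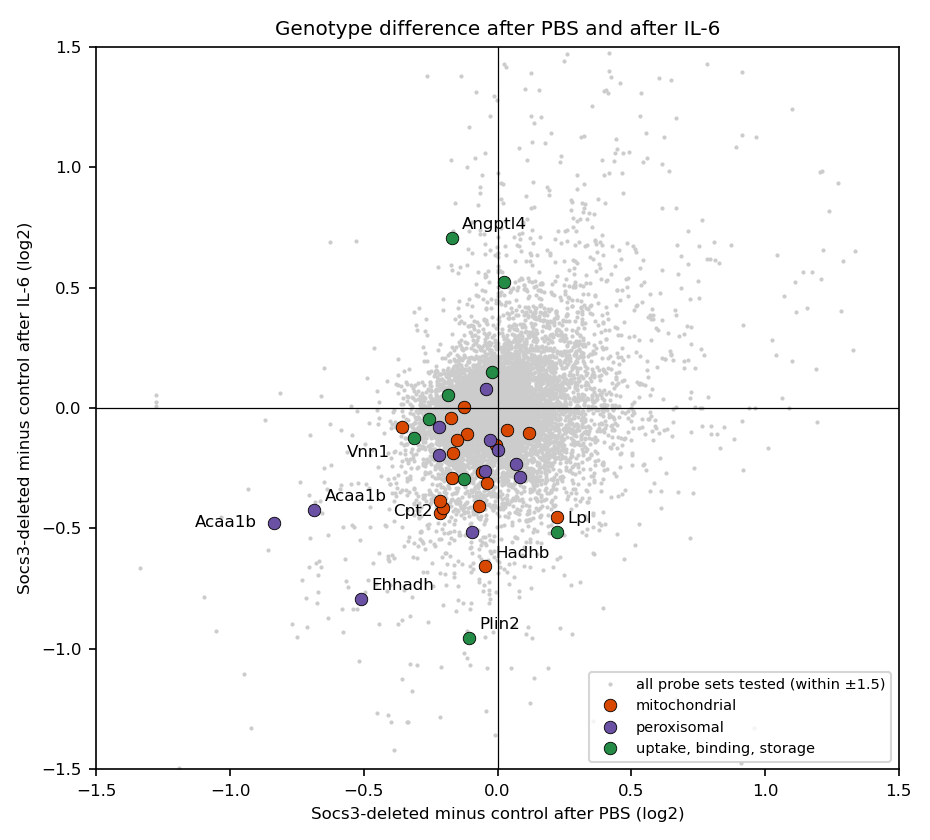
log2 difference between Socs3-deleted and control mice after PBS (horizontal) and after IL-6 (vertical) for the 39 probe sets, coloured by role, over all tested probe sets in grey. Of the 39, 26 lie below 0 on both axes, where Acaa1b is farthest left, and Plin2 is lowest after IL-6 with a PBS difference near 0.

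Markers of cell types moved in the same comparison, and their part in these differences was not tested. After IL-6 the hepatocyte markers were lower in Socs3-deleted mice for 14 of 15 probe sets with a median of -0.23, and their summed intensity was 58367 to 62520 against 64680 to 68513. After PBS 6 of the 15 were lower with a median of 0.06. The macrophage and Kupffer cell markers were higher for all but 1 of 16 probe sets after IL-6 with a median of 0.38, and their sum was 4890 to 6001 against 3751 to 3766. After PBS they were also higher for all but 1 of the 16 with a median of 0.24, their sum was 4093 to 4703 against 3383 to 3756, and the median averaged over both injections was 0.29. With IL-6 against PBS the hepatocyte markers had a median of -0.30 in Socs3-deleted mice, 14 of 15 lower, and -0.10 in control mice. In whole liver, fewer hepatocytes, less RNA per hepatocyte and changed expression of the marker genes themselves cannot be told apart. The same holds for cell number and marker expression in the macrophage list, so neither list measures cell content.

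Of other genes of fatty acid oxidation, ketogenesis and the PPARα response, 85 were listed, 51 had a probe set and 50 probe sets of 45 genes were tested. Averaged over both injections, 36 of the 50 were lower in Socs3-deleted mice with a median of -0.15, against 56.4% negative and a median of -0.02 over all probe sets. The single call in any comparison, 1 of 50 against a background of 0.799%, was Abcd3, the peroxisomal membrane transporter of fatty acyl-CoA. The control arrays read 3215 and 2654 after PBS and 2212 and 2519 after IL-6. The Socs3-deleted arrays read 1899 and 1740, then 1843 and 1760, with no overlap. Its log2 difference was -0.54 ± 0.09 (limma adjusted p = 0.0405), kept as a call in 10 of 25 alternative settings. Leaving out any 1 of the 8 arrays of these genotypes, or either IFN-γ array, ended that call, with a value of -0.61 to -0.47. Ppara itself, named after its values were seen, read 424 and 95.4 in Socs3-deleted mice after IL-6 and 397 and 414 after PBS. Control mice read 506 and 573 after IL-6 and 612 and 460 after PBS. The averaged difference of Ppara, -0.90 ± 0.38, did not pass (limma adjusted p = 0.477) and leaned on the array at 95.4. Its difference after PBS was -0.39 ± 0.54.

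IL-6 against PBS gave no call among these genes in either genotype. In control mice none of the 39 was called by limma, against a background of 0%, and 2 of the 39, Plin2 and Vnn1, had an unadjusted p of at most 0.05, against a background of 2.57%. The median was 0.01, with 19 lower and 20 higher, and it was 0.16 without the first control PBS array. In Socs3-deleted mice none of the 39 was called by limma, against a background of 1.17%, and 3 had an unadjusted p of at most 0.05, against 10.8%. These were Vnn1, Cpt2 and Lpl, and the median was -0.07. The test of the difference between the 2 responses called none by limma, against 0.0415% of all probe sets, and 1, Plin2, had an unadjusted p of at most 0.05, against 3.94%. The mean response of both genotypes gave no call by limma against 1.06%, and 1 of the 39, Vnn1, had an unadjusted p of at most 0.05, against 9.19%.

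Vnn1, a pantetheinase and a known PPARα target in liver, had the largest positive IL-6 differences. In control mice it read 126 and 163 after PBS and 216 and 252 after IL-6. The Socs3-deleted arrays read 83.7 and 160 after PBS and 166 and 276 after IL-6. The IL-6 arrays lay above the PBS arrays of the same genotype in both. The mean difference was 0.80 ± 0.22, or 1.74-fold, and did not pass (limma adjusted p = 0.182). Lpl, the lipase that frees fatty acids from lipoproteins, read 67.0 and 70.9 on the Socs3-deleted PBS arrays and 36.9 and 39.2 on the IL-6 arrays, close to the floor. The difference of -0.86 ± 0.38 did not pass (limma adjusted p = 0.458), and in control mice the arrays overlapped at 52.8 and 66.0 against 47.0 and 62.6.

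Angptl4, a secreted inhibitor of Lpl, had 3 tested probe sets that did not give one value. In Socs3-deleted mice after IL-6 against control mice after IL-6, 96119_s_at gave 0.71 ± 0.45 and 102114_f_at gave 0.53 ± 0.31, with limma adjusted p = 0.818 and 0.767. The third, 96118_at, gave 0.05 ± 0.16 (limma adjusted p = 1). On 96119_s_at the control IL-6 arrays themselves read 403 and 185, more than 2-fold apart, and the Socs3-deleted ones 532 and 375. The Socs3-deleted PBS arrays read 226 and 321, a log2 difference of 0.73 after IL-6. On 102114_f_at, PBS gave 271 and 324 and IL-6 466 and 363, a difference of 0.47. On 96118_at these groups overlapped. The IL-6 responses of the genotypes differed by 0.88 on 96119_s_at and 0.50 on 102114_f_at. IFN-γ gave 0.40 ± 0.45 on 96119_s_at, 0.37 ± 0.31 on 102114_f_at and -0.07 ± 0.16 on 96118_at. None of these passed. Fabp1, the abundant fatty acid binding protein of hepatocytes, read 5471 and 6162 in control and 4703 and 4752 in Socs3-deleted mice after IL-6 on 94075_at. Those groups did not overlap, and the difference of -0.30 ± 0.12 did not pass (limma adjusted p = 0.473). Its dim second probe set, 162342_at, gave 0.15 ± 0.20. Acot1, a cytosolic acyl-CoA thioesterase, ranged from 90.3 to 182 over the arrays with no call.

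**Figure D4:**
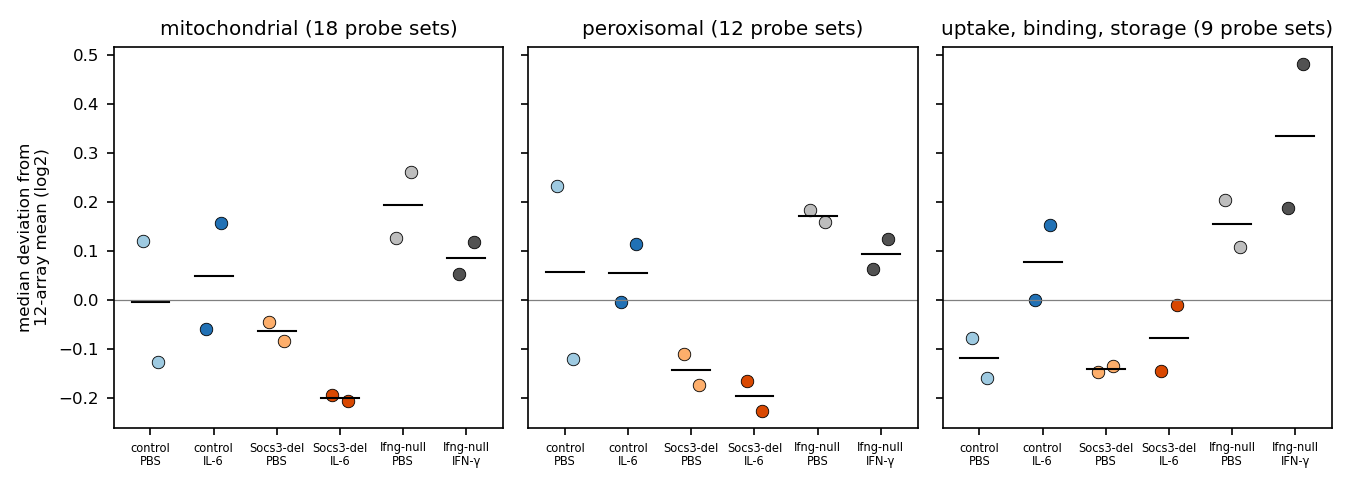
Median log2 deviation of each array from the 12-array mean, over the mitochondrial (18), peroxisomal (12) and uptake, binding and storage (9) probe sets; points are arrays and lines group means. The mitochondrial medians of the Socs3-deleted IL-6 arrays, -0.19 and -0.21, are the lowest of the 12, and the 2 control PBS arrays lie apart at 0.12 and -0.13.

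In Ifng-null mice IFN-γ called none of the 39 probe sets by limma, against a background of 0.653%. The difference between replicates correlated at 0.66 between the PBS and IFN-γ groups over the tested probe sets, and a paired test was not run. An unadjusted p of at most 0.05 was reached by 4 of the 39, against 6.93%, and the median was -0.03 in these genes and over all probe sets alike. Pex11a, which promotes the division of peroxisomes, read 455 and 626 after PBS and 636 and 989 after IFN-γ. The groups did not overlap, and the difference of 0.57 ± 0.24 did not pass (limma adjusted p = 0.677). Hadh read 1021 and 1191 against 740 and 918, Cat 1057 and 1249 against 921 and 801 on 160479_at, and Scp2 3454 and 3356 against 2722 and 2438 on 93278_at, each lower after IFN-γ without overlap. Their log2 differences were -0.42 ± 0.16, -0.42 ± 0.18 and -0.40 ± 0.13, and none passed (limma adjusted p = 0.591, 0.669 and 0.431). The second probe sets of Cat and Scp2 gave smaller differences. Cat 161877_f_at overlapped at 329 and 251 against 323 and 273, a difference of 0.05 ± 0.14 (limma adjusted p = 1). Scp2 95787_s_at gave 3979 and 3580 against 3235 and 3192 without overlap, a difference of -0.23 ± 0.16 (limma adjusted p = 0.97). The hepatocyte markers had a median of -0.27 in the same comparison, with a summed intensity of 66060 to 68358 after PBS and 55161 to 59106 after IFN-γ, and their part in the result was not tested.

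After PBS, Ifng-null mice were compared with control mice, whose PBS arrays also serve the IL-6 comparison above. None of the 39 was called by limma, against a background of 0%, and 4 had an unadjusted p of at most 0.05, all higher. The background for the latter was 3.08% in either direction, with 189 of the 9641 probe sets higher. The difference was positive for 28 of the 39 with a median of 0.16, against -0.01 over all probe sets. It was 0.30 without the first control PBS array and 0.01 without the second, so its size depended on which of these was kept. Plin2 read 4030 and 4035 in Ifng-null mice against 2895 and 2170, a log2 difference of 0.69 ± 0.17 that did not pass (limma adjusted p = 0.873). Vnn1 read 231 and 264 against 126 and 163, a difference of 0.78 ± 0.31 (limma adjusted p = 0.873). Pex11a gave 455 and 626 against 387 and 368 without overlap, a difference of 0.50 ± 0.24 (limma adjusted p = 0.873). Ech1 gave 1308 and 1478 against 1093 and 996, a difference of 0.41 ± 0.17 (limma adjusted p = 0.873). After IFN-γ, Plin2 read 4171 and 4997, and the 4 Ifng-null arrays were the highest of the 12 for this gene.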

How the data were processed

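The authors deposited a linear signal intensity for every probe set on every array; their software and normalization are not given in the sources used here, and array medians already lie close together. The deposited values were raised to a floor of 33.0, their 25th percentile, and taken to log2 here. Probe sets above the floor on at least 2 arrays were tested, without the 66 control probe sets. The 6 groups were fitted in one model with limma 3.58.1 in R 4.3.3 (6 residual and 3.38 prior degrees of freedom), and p-values were adjusted over all 9641 probe sets with the Benjamini-Hochberg method. Errors are SE of log2 differences. Depth has no meaning for arrays, and 2 arrays per group limit the precision.

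Gene symbols came from the platform's probe table, which can be old. The genes and lists were chosen with earlier results of these data known. The rule for naming genes took those called and, per comparison, those with the 3 largest differences in each direction. Most are given with values for the comparisons they stand out in or the range over arrays, and others are named by role. Not every difference that the rule took is printed. Further probe sets are given with values outside this rule. In Socs3-deleted against control mice after IL-6 these included Cpt2, Acaa1b, Ech1, Acadm, Hadh, Etfdh and the brighter Fabp1 probe set, all lower. The dimmest tested Angptl4 probe set, slightly higher, was also given. How many listed genes were lower is therefore read from the counts over all listed probe sets. On simulated data with 200 probe sets changed, the fit for Socs3-deleted against control mice after IL-6 recovered 35.7% of 1.5-fold, 80.1% of 2-fold and 97.4% of 4-fold changes, with 5.78% false calls. The simulated noise was normal and independent between probe sets, without shifts shared within an array. The number of changed probe sets was set in advance, so these rates may not hold for the real arrays. The alternatives changed the normalization (quantile), the floor, the filter, the trend of variance with intensity, the weights of arrays, the arrays fitted, a replicate block, and left out each array in turn.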

Additional observations from a re-analysis of the deposited data

How the results depend on the processing

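Groups of 2 arrays, a filter on low signal and a normalization by the authors that is not known limit these values, and a probe set's intensity says nothing of how well it binds its transcript. Of 1648 alternative values for 66 named results, 1567 kept direction and side of the threshold, 17 reversed, 53 lost the call and 11 gained one, by limma with an adjusted p of at most 0.05. The cause of these changes was not tested. Much of the agreement was fixed in advance. Most named results were not called in the fit reported, and leaving out an array outside a comparison cannot change its log2 difference. Of the lost calls 9 were of Plin2 (adjusted p 0.0509 to 0.277), 15 of Abcd3 (0.0528 to 0.172) and the rest of Socs3. For Socs3-deleted against control mice after IL-6, the count of listed probe sets called was 0 with no filter, in a fit of those 4 arrays and with the haemoglobin covariate, 2 with array weights (Plin2 and Cpt2), and 0 to 1 when single arrays were left out. For the average of PBS and IL-6, 0 in the fit reported became 2 with quantile normalization (Plin2 and Acaa1b), 3 with array weights (Plin2, Acaa1b and Cpt2), and 1 (Acaa1b) with the floor exceeded on at least 6 arrays, with no floor, with the haemoglobin covariate and with the replicate block. The replicate block also gave 1 call, Vnn1 (adjusted p = 0.038), for the mean IL-6 response, and changed no other call among the listed genes. Same-numbered arrays of the 15 pairs of groups correlated in their deviations from -0.25 to 0.66, and the numbers were not taken as a pairing. The value of 0.66 was between the Ifng-null PBS and IFN-γ groups, and the next highest was 0.31. A pairing within the Ifng-null arrays alone was not tested. Crossing the numbers of the Ifng-null groups gave 0 calls for Ifng-null against control mice, as without crossing. With single arrays left out the median difference of the 39 probe sets ranged from -0.063 to 0.16 for IL-6 in control mice, from -0.25 to 0.038 for the difference between those responses (-0.13 as reported, -0.011 without the filter), from -0.17 to 0.014 for the PBS genotype difference, from -0.31 to -0.14 for the IL-6 one, and from 0.012 to 0.30 for Ifng-null against control mice. Without the 2 arrays with pancreatic transcripts, a setting chosen after seeing the data like those with no floor, a floor computed without control probe sets and the haemoglobin covariate, the PBS medians were -0.23 for Socs3-deleted and 0.012 for Ifng-null mice. That setting reversed Angptl4 96118_at for IL-6 in control mice (0.066), Cpt1a for the PBS genotype difference (-0.077), and Angptl4 96119_s_at (-0.070) and 102114_f_at (-0.043) for the average. Single arrays left out also reversed some values, with these ranges: for IL-6 in control mice Acot1 (-0.54 to 0.13), Angptl4 96119_s_at (-0.71 to 0.41) and 96118_at (-0.34 to 0.066); for the difference between responses Angptl4 102114_f_at (-0.0081 to 1.01); for IFN-γ Angptl4 96119_s_at (-0.15 to 0.94); for the PBS genotype difference Etfa (-0.060 to 0.30) and Cpt1a (-0.10 to 0.54); for Fabp1 162342_at after IL-6 -0.036 to 0.34, on average -0.028 to 0.16 and in Ifng-null mice -0.39 to 0.00083; and for Angptl4 96119_s_at on average -0.012 to 0.55. Over all probe sets the calls ranged from 1 to 160 (113 as reported) for IL-6 in Socs3-deleted mice, 0 to 15 (4) for the difference between responses, 8 to 72 (63) for IFN-γ, 0 to 223 (92) for genotype after IL-6, 4 to 142 (102) for the mean IL-6 response and 6 to 142 (77) for the mean genotype difference. With the floor at the 50th percentile Lpl, Pdk4 and Fabp1 162342_at gave no value. The planned comparison of protein sequences was not run.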
